A study of Mus musculus with 17 samples.

Results

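MHC class II expression in the aging mouse kidney was followed through 10 genes of its machinery, chosen by role among the 53313 gene identifiers that all 17 libraries share. They are the transactivator gene Ciita, the 3 genes of the RFX complex (Rfx5, Rfxap and Rfxank), the beta chain genes H2-Ab1 and H2-Eb1, the invariant chain gene Cd74, the peptide editor genes H2-DMa and H2-DMb1, and the protease gene Ctss. RNA came from 8 cultures of primary tubular epithelial cells (PTEC), grown out of collagenase-digested kidneys of wild-type C57BL/6JRj mice, and from unsorted tissue, a piece of the right kidney, of 9 male wild-type mice of the same strain. The 4 non-senescent PTEC cultures were unirradiated and taken at day 6, and the 4 senescent cultures were taken at day 16 after 10 Gray of γ-irradiation, so that irradiation and days in culture cannot be told apart. The kidneys came from untreated mice aged 3, 12 and 24 months, with 3 mice per age. No source states which mice gave rise to each culture, and p-values for PTEC measure the spread between these cultures.

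MHC class II molecules are pairs of an alpha and a beta chain that show peptides from engulfed or recycled proteins to CD4+ T cells. Their genes are switched on when the RFX complex and NF-Y, bound to the X and Y boxes of the promoter, recruit CIITA, which does not bind DNA itself and is the limiting component in most cells. The invariant chain Cd74 escorts the new pairs, cathepsin S (Ctss) trims it in the endosome, and H2-DM exchanges the last fragment for a peptide. Dendritic cells, B cells and macrophages are the main producers, while interferon-γ can induce the genes in tubular epithelium. C57BL/6 mice carry a haplotype that makes no functional E alpha chain, so the product of H2-Eb1 lacks its usual partner, and H2-Ab1 pairs with the product of H2-Aa.

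Promoter stretches of RefSeq (GRCm38.p6) are shown for H2-Eb1 and H2-DMb1, which rose in senescent PTEC, for H2-DMb2, which fell there, and for H2-Aa, which stayed at a few reads. Each runs from 140 to 31 bases before the start site, 5′ to 3′ on the gene's own strand, and lies at chr17:34305727-34305836 (plus strand), chr17:34153051-34153160 (plus), chr17:34145109-34145218 (plus) and chr17:34287854-34287963 (minus). Capitals mark AACNGATG, letters within the X box of H2-Eb1, H2-DMb1 and H2-DMb2, and ATTGG, the core of the Y box, on either strand. H2-Aa holds ATTGG but not AACNGATG, and other forms of the X box were not searched for.
H2-Eb1: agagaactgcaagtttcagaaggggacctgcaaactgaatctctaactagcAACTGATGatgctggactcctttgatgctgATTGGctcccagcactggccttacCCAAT
H2-DMb1: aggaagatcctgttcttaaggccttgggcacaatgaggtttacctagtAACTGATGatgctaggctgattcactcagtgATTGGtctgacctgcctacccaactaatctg
H2-DMb2: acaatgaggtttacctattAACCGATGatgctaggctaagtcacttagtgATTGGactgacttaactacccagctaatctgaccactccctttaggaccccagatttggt
H2-Aa: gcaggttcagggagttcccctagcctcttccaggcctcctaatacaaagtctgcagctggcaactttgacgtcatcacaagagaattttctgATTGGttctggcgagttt
The gap between both motifs was 22 bases in H2-Eb1 and 23 bases in H2-DMb1 and H2-DMb2. Within the longer window from 250 bases before to 50 bases after the start site, AACNGATG was present in 2.32% and ATTGG in 37.4% of 32851 promoters. Both on 1 strand, with ATTGG within 40 bases after AACNGATG, were found in 17 promoters (0.0517%), of which H2-Eb1, H2-Eb2, H2-DMb1 and H2-DMb2 are 4. The letters of the X motif were chosen after these promoters had been read, and a match is a description of the sequence. H2-DMb1, which rose, and H2-DMb2, which fell, hold both motifs at the same spacing. Of the 10 genes, 6 had a promoter in the table used, and Ciita, Rfxap, Cd74 and H2-Ab1 had none. Among the 6, H2-Eb1 and H2-DMb1 held both motifs in this order. H2-DMa, which also rose in senescent PTEC, held no AACNGATG, nor did Rfx5 and Rfxank, and Ctss held it without ATTGG.

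Between 26963442 and 35409144 reads were counted per PTEC culture. Per kidney, between 37311247 and 49471409 reads were counted at 3 months, 54097073 and 59718029 at 12 months, and 62761670 and 66894790 at 24 months. Levels are given as CPM, reads scaled to a common library size after TMM normalization. A gene was called up- or down-regulated at an adjusted p under 0.05 from edgeR's quasi-likelihood test, adjusted over all tested genes, with an absolute log2 fold change (log2FC) above 0.5. Standard errors (SE) are those of the log2FC. PTEC replicate 3 of both groups stood apart on the first component of the spread within groups, which held 44.7% of it. Among kidneys, 3-month replicate 3 and 12-month replicate 2 lay at 1 end of that component (59.5% of the spread) and 3-month replicate 2 at the other. Of 12 proximal tubule markers, 12 were lowest of their age in 3-month replicate 3, 11 in 12-month replicate 2, and 12 highest in 3-month replicate 2. In the PTEC, 8 of these 12 markers passed the filter on low counts and 5 were down-regulated in senescent cultures, among them Hnf4a, which encodes a factor of proximal tubule identity. 

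In senescent PTEC, 5 of the 10 genes were up-regulated and none was down-regulated. These were Cd74, H2-Eb1, H2-Ab1, H2-DMa and H2-DMb1, which encode the chains and chaperones of the class II molecule. The 3 RFX genes and Ctss did not pass the test, and Ciita had too few reads to be tested. Over all 15434 tested genes, 20.1% were up-regulated and 19.7% down-regulated in the same comparison. The median log2FC was 1.37 over the 9 tested genes of the list and -0.00 over all tested genes. Of the 5, Cd74 and H2-Eb1 passed the filter on low counts through the senescent cultures alone. The filter thus kept both of them and left out Ciita, so that the median of the list depends in part on it and is a description.

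Ciita (ENSMUSG00000022504, chromosome 16, 10480059 to 10528418 of GRCm38) encodes the transactivator that the RFX complex recruits to class II promoters. It had 6, 2, 1 and 11 reads in non-senescent PTEC replicates 1 to 4 and 1, 1, 2 and 1 reads in senescent PTEC. No senescent culture exceeded 3 reads, and the groups overlapped. Summed over cultures there were 20 and 5 reads, a non-senescent to senescent ratio of 4.43 after scaling, with a 95% exact interval of 1.61 to 15.1 that covers counting error only. The level differed by -0.137 CPM between senescent and non-senescent means (exact two-sided permutation test over 70 arrangements, p = 0.0571, smallest possible 0.0286). This test leaves the replicate numbers, which may pair the cultures, out of account. Without the filter edgeR gave a log2FC of -2.05 (adjusted p = 0.0651). A rise of Ciita transcripts was therefore not detected in the cultures in which the chain genes were up-regulated.

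The RFX genes encode the DNA-bound platform of the class II promoter and are expressed in most cell types. Rfx5 (chromosome 3, 94954075 to 94961561), which carries the DNA-binding domain, was at 18.1, 20.6, 13.4 and 26.1 CPM in non-senescent and at 22.7, 21.01, 23.1 and 26.5 CPM in senescent PTEC. The groups overlapped, with a log2FC of 0.27 (SE 0.193, adjusted p = 0.285 from edgeR). Rfxap (chromosome 3, 54803115 to 54807791), an associated subunit, was at 13.3, 12.7, 17.6 and 12.1 CPM in non-senescent and 10.1, 11.6, 11.5 and 9.89 CPM in senescent PTEC. Each senescent culture lay below each non-senescent culture, as it did for 20.6% of all tested genes, and the log2FC of -0.36 (SE 0.173) did not pass (adjusted p = 0.118 from edgeR). Rfxank (chromosome 8, 70130794 to 70139154), the ankyrin repeat subunit, ranged from 7.41 to 11.3 CPM in non-senescent and from 7.94 to 9.88 CPM in senescent PTEC, with a log2FC of -0.06 (SE 0.182, adjusted p = 0.807 from edgeR). Rfxank shares 1341 exon bases with Nr2c2ap, Rfx5 shares 1471 with B230398E01Rik, and H2-DMa shares 360 with Brd2, all on the opposite strand. Brd2 had 8980 reads in non-senescent replicate 1, where H2-DMa had 25. The strand setting of the counter is not stated, so that reads of such pairs cannot be told apart.

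The beta chain genes moved by unequal amounts. H2-Eb1 (chromosome 17, 34305867 to 34316674) was at 0.311, 0.266, 0.727 and 0.224 CPM in non-senescent PTEC (6 to 19 reads) and at 2.88, 1.69, 4.33 and 2.03 CPM in senescent PTEC (51 to 162 reads). Each senescent culture was higher than each non-senescent culture, as for 21.5% of all tested genes, and the fold was 7.20 (SE 0.459, adjusted p = 0.000988 from edgeR). H2-Ab1 (chromosome 17, 34257689 to 34269419) was at 0.404, 0.564, 1.19 and 0.636 CPM in non-senescent and at 1.78, 0.961, 2.59 and 3.23 CPM in senescent PTEC. Senescent replicate 2 lay below non-senescent replicate 3, and the fold was 3.09 (SE 0.449, adjusted p = 0.0156 from edgeR). H2-Aa, the alpha chain gene that pairs with H2-Ab1, had 1, 3, 3 and 3 reads in non-senescent and 3, 1, 2 and 2 reads in senescent PTEC, and was not tested. Per kilobase of exon, H2-Ab1 was 8.38 to 19.2 times the level of H2-Aa in non-senescent PTEC and 27.1 to 71.7 times in senescent PTEC, ratios that rest on at most 3 reads of H2-Aa per culture. In kidneys of all ages the same ratio lay between 1.63 and 2.03. H2-Eb2 and H2-Oa had 0 reads in all 8 cultures, and H2-Ob at most 2.

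Cd74 (chromosome 18, 60803848 to 60812652) was at 0.0934, 0.365, 0.536 and 0.262 CPM in non-senescent PTEC (3 to 14 reads) and at 1.94, 1.62, 5.51 and 2.47 CPM in senescent PTEC (49 to 206 reads). Each senescent culture was higher than each non-senescent culture, as for 21.5% of all tested genes. Senescent replicate 3 was highest, and the fold was 9.31 (SE 0.557, adjusted p = 0.00147 from edgeR). Without replicate 3 of both groups the same 5 genes were called.

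The H2-DM genes, whose products form the alpha and beta chains of the peptide editor, were called with smaller spread. H2-DMa (chromosome 17, 34119541 to 34139101) was at 0.778, 0.697, 1.87 and 1.83 CPM in non-senescent and at 3.86, 3.71, 3.80 and 3.43 CPM in senescent PTEC. H2-DMb1 (chromosome 17, 34153072 to 34160230) was at 1.4, 1.66, 3.83 and 4.15 CPM in non-senescent and at 6.68, 7.26, 7.12 and 7.35 CPM in senescent PTEC. For both genes replicates 3 and 4 were the higher of the non-senescent cultures, and each senescent culture exceeded them, as for 21.5% of all tested genes. The fold was 2.88 for H2-DMa (SE 0.354, adjusted p = 0.00677 from edgeR) and 2.59 for H2-DMb1 (SE 0.355, adjusted p = 0.0115 from edgeR). H2-DMb2, a neighbouring gene for a closely related beta chain, went the other way, with 62, 59, 105 and 62 reads in non-senescent and 2, 3, 3 and 2 reads in senescent PTEC. It passed the filter on low counts through the non-senescent cultures alone. Its log2FC was -4.95 (SE 0.405, adjusted p = 2.14e-05 from edgeR), and the ratio of summed reads was 31.9 (95% exact interval 17.1 to 67.2, counting error only). H2-DMb2 made up 35.8% to 57.9% of the reads on both beta chain genes in non-senescent PTEC, 0.926% to 1.35% in senescent PTEC and 6.72% to 11.6% in kidneys. Of all 76-base stretches in H2-DMb1 transcripts, 15.7% also occur in H2-DMb2, so that reads from these stretches could be split between both. The sum of both was at 3.33, 3.62, 7.85 and 6.47 CPM in non-senescent and 6.74, 7.36, 7.20 and 7.42 CPM in senescent PTEC, and these groups overlapped.

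Ctss (chromosome 3, 95526786 to 95556403) was at 8.74, 20.6, 6.43 and 8.30 CPM in non-senescent and at 6.71, 16.4, 4.87 and 3.95 CPM in senescent PTEC. Replicate 2 was highest in both groups, the groups overlapped, and the log2FC of -0.45 (SE 0.496) did not pass (adjusted p = 0.494 from edgeR). With the replicate number as a block, Ctss was down-regulated, with a log2FC of -0.53 (adjusted p = 0.0335 from edgeR, between 0.0335 and 0.960 over 15 alternatives). The summed level of 15 macrophage markers was also highest in replicate 2 of both groups, at 195.7 and 287 CPM. Its part in the Ctss level was not tested.

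**Figure D1:**
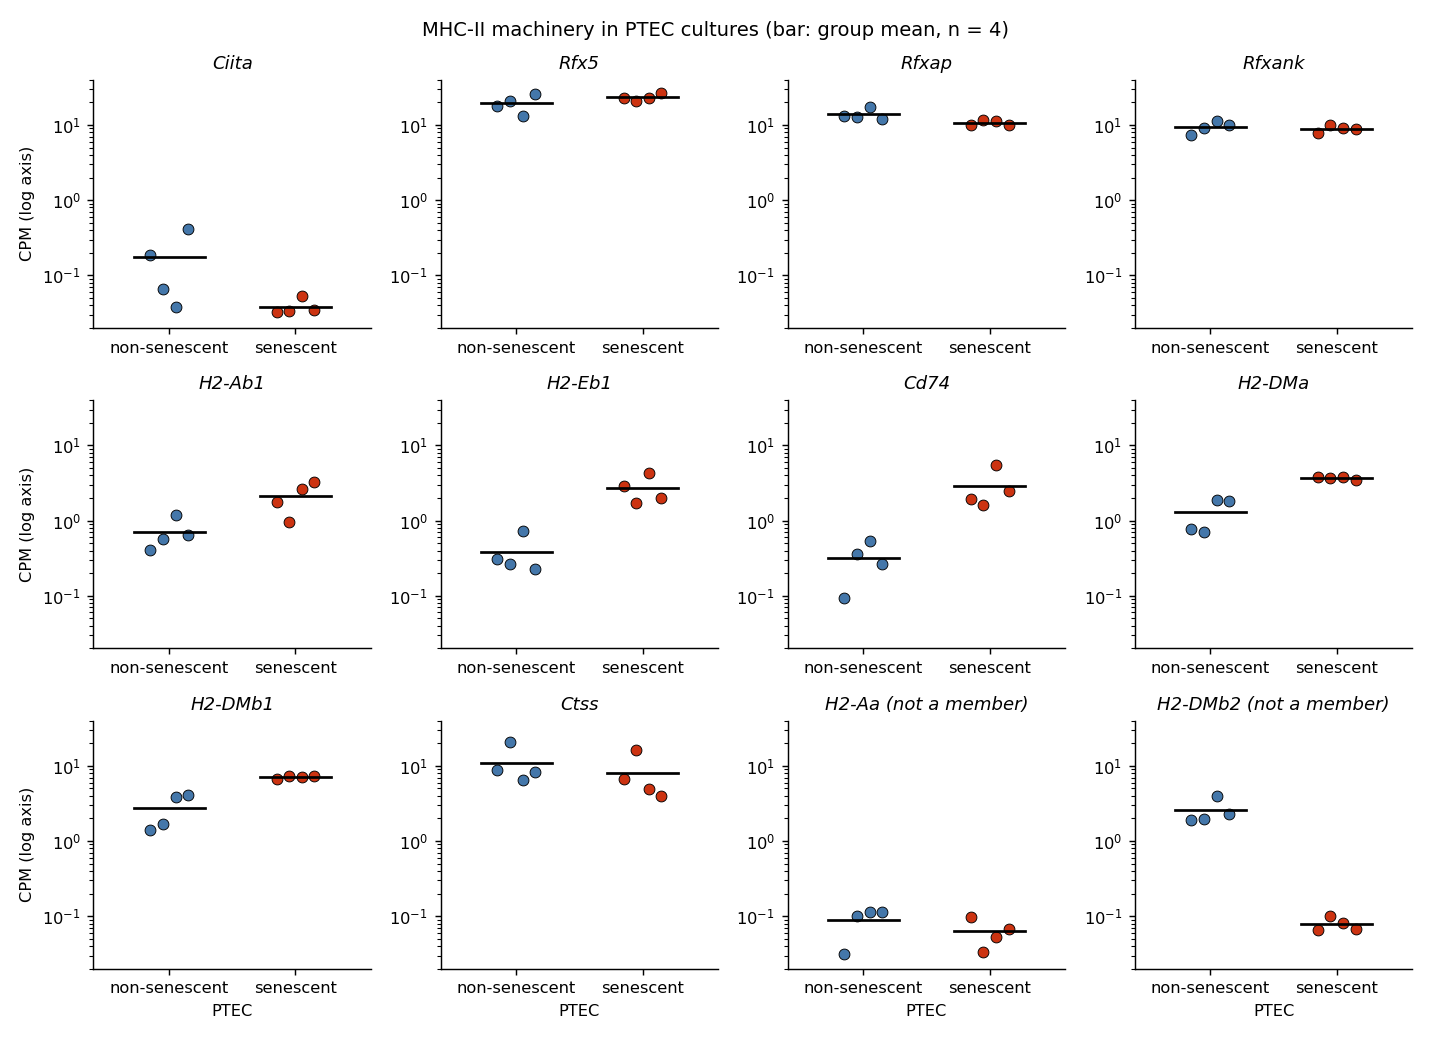
CPM on a log axis of the 10 genes, H2-Aa and H2-DMb2 in each of the 4 non-senescent (blue) and 4 senescent (red) PTEC cultures, with replicates 1 to 4 from left to right and the group mean as a bar. Cd74, H2-Eb1, H2-DMa and H2-DMb1 do not overlap between the groups and are higher in senescent cultures, as are 21.5% of all tested genes. Rfx5 and Rfxank overlap. Each senescent culture lies below each non-senescent one for Rfxap, as for 20.6% of all tested genes. H2-DMb2 drops from at least 1.93 CPM to at most 0.0994 CPM.

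Markers of cells that could bring class II transcripts into the cultures were followed as well. The 12 pan-leukocyte markers summed to 65.4 to 88.7 CPM in non-senescent and 43.0 to 63.7 CPM in senescent PTEC. Of 11 tested, 5 were down-regulated, among them Ptprc (CD45; log2FC -0.94, adjusted p = 0.0141 from edgeR), Coro1a, Arhgdib, Itgb2 and Lcp1, and Cytip was up-regulated. The 15 macrophage markers summed to 128 to 196 CPM and 87.5 to 287 CPM, none of 12 tested was up-regulated, and Cd68 and Cd14 were down-regulated. Macrophage transcripts such as Lyz2 (664 to 4597 reads) and Csf1r (492 to 1200 reads) were present in each culture. Of 10 dendritic cell markers, Xcr1 had no read in any culture, 5 had at most 3 reads in each, and the 2 tested, Zbtb46 and Fscn1, were up-regulated, with log2FC of 1.002 and 1.66 (adjusted p = 0.00395 and 0.000510 from edgeR). Fscn1, an actin bundling protein, is not limited to dendritic cells. The dendritic cell list summed to 23.7 to 44.6 CPM in non-senescent and 82.4 to 128 CPM in senescent PTEC, and Fscn1 alone made up 79.7% to 89.6% and 86.9% to 93.2% of its reads. Of the 8 B cell markers none was tested and Fcrla had no read in any culture. The list summed to 0.0622 to 0.299 CPM in non-senescent and 0.481 to 0.810 CPM in senescent PTEC, without overlap. These sums rest on few reads, as 5 of the 8 had at most 3 reads in each culture and the highest count was 14, for Pax5. Of the 8 T cell markers Cd3d, Cd3g and Cd8b1 had no read, 1 was tested, and the sum lay at 2.58 to 4.10 CPM and 2.33 to 2.92 CPM. The part of these cell types in the class II levels was not tested. For fibroblasts and pericytes, 5 of 7 tested markers were up-regulated (Acta2, Dcn, Col3a1, Col1a2 and Pdgfrb), and the sum of 8 lay at 79.5 to 168 CPM in non-senescent and 562 to 1208 CPM in senescent PTEC. Reads on Cd74, H2-Ab1 and H2-Eb1 per pan-leukocyte marker read were 0.0124 to 0.0360 in non-senescent and 0.0671 to 0.260 in senescent PTEC, without overlap. Per macrophage marker read they were 0.00611 to 0.0183 and 0.0149 to 0.134, and per dendritic cell marker read 0.0190 to 0.0804 and 0.0517 to 0.120, both with overlap of the ranges. Between same-numbered cultures each of these 3 ratios was higher in the senescent culture in 4 of 4 pairs. It was higher by 4.98 to 12.4 times for pan-leukocyte, 2.44 to 12.2 times for macrophage and 1.49 to 2.73 times for dendritic cell markers. All 3 genes of the numerator were themselves up-regulated in senescent PTEC, so that these ratios partly restate those calls and are a description. In these bulk libraries more cells with class II transcripts and more transcripts per cell cannot be told apart.

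Genes upstream of Ciita were given by a list of 13 that lead from interferon-γ to its promoters. Irf8 and Spi1, transcription factors of myeloid and lymphoid cells, were down-regulated, with log2FC of -1.33 (adjusted p = 0.00272) and -1.26 (adjusted p = 0.0157 from edgeR). Irf1, which acts at Ciita promoter IV, had a log2FC of -0.47 (adjusted p = 0.0164 from edgeR), under the fold threshold. Ifng itself had no read in any of the 8 cultures. Of 12 partners of the RFX complex and CIITA, such as NF-Y subunits and histone acetyltransferases, 12 were tested and Nfyc alone was called, down-regulated with a log2FC of -0.91 (adjusted p = 0.000803 from edgeR). Of 9 genes of class II antigen processing and turnover, 8 were tested. The lysosomal proteases Ctsl and Ctsd were up-regulated, with log2FC of 0.99 (adjusted p = 0.00236) and 0.83 (adjusted p = 0.0270 from edgeR), and Lgmn, the asparaginyl endopeptidase, was down-regulated at -0.75 (adjusted p = 0.0343 from edgeR).

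Levels of different genes were compared per kilobase of exon. In senescent PTEC the order was Ctss (5.88 ± 4.22, SD, n = 4), Rfxap (4.80 ± 0.394), Rfx5 (4.25 ± 0.422), H2-DMb1 (4.22 ± 0.177), Rfxank (2.26 ± 0.201), Cd74 (1.72 ± 1.06), H2-Eb1 (1.41 ± 0.606), H2-DMa (1.07 ± 0.0543), H2-Ab1 (0.834 ± 0.383) and Ciita (0.00402 ± 0.00106 CPM per kb). Neighbours in this order overlapped in range, except that each culture was higher for H2-DMb1 than any was for Rfxank and higher for H2-Ab1 than any was for Ciita. Rfxap also lay above H2-DMb1 in all cultures, while Ctss overlapped with Rfxap, Rfx5 and H2-DMb1, Rfxank with Cd74 and H2-Eb1, and Cd74, H2-Eb1, H2-DMa and H2-Ab1 with each other. In 24-month-old kidneys the order was Cd74 (209 ± 47.3, SD, n = 3), H2-Eb1 (71.3 ± 12.2), H2-Ab1 (63.1 ± 11.2), Ctss (18.9 ± 3.42), H2-DMb1 (11.01 ± 0.738), Rfxap (4.15 ± 0.247), H2-DMa (3.71 ± 0.633), Rfxank (2.81 ± 0.0941), Rfx5 (1.74 ± 0.201) and Ciita (0.631 ± 0.0760 CPM per kb). There H2-Eb1 and H2-Ab1, and Rfxap and H2-DMa, differed by less than their spread. By mean, the class II chain genes stood above the RFX genes in the kidneys and below them in the PTEC. PTEC and kidneys were counted on different gene sets, and their levels are set side by side without a test.

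**Figure D2:**
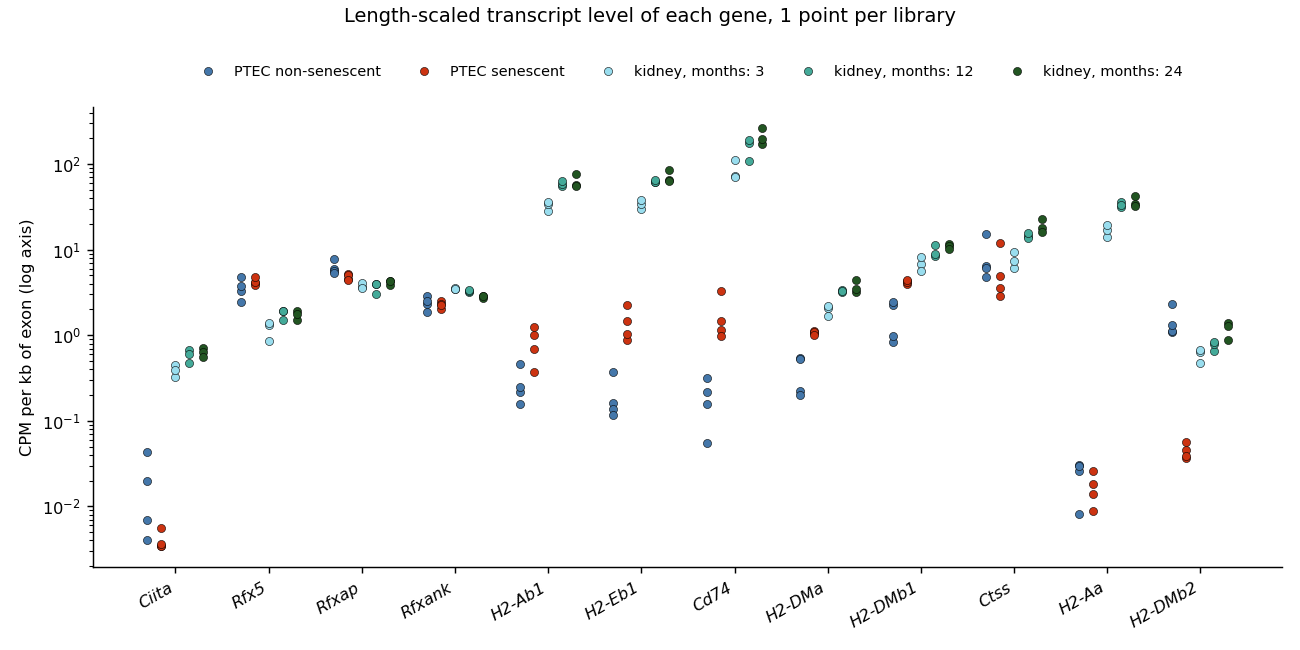
CPM per kilobase of exon on a log axis for the 10 genes, H2-Aa and H2-DMb2, with 1 point per library and a colour per group. Ciita lies at most at 0.0431 CPM per kb in PTEC and at 0.327 CPM per kb or more in kidneys, while the RFX genes lie between 0.853 and 7.85 CPM per kb in all libraries.

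In the kidneys the question was how these genes differ with age. Between 24 and 3 months, 5 of the 10 genes were up-regulated, namely Ctss, Cd74, H2-Eb1, H2-Ab1 and H2-DMa, and none was down-regulated. Over all 17067 tested genes, 1.89% were up-regulated and 0.451% down-regulated. Between 12 and 3 months H2-Eb1 and H2-Ab1 were up-regulated, against 1.22% of all tested genes up-regulated and 1.36% down-regulated. Between 24 and 12 months 0 of the 10 genes were called with edgeR, DESeq2 or limma voom, 0 had an unadjusted p under 0.05, and over all tested genes 0.896% were up-regulated and 0.434% down-regulated. The median log2FC of the 10 genes was 0.79 for 24 against 3 months, 0.64 for 12 against 3 months and 0.19 for 24 against 12 months, and over all tested genes each of these medians was 0.00. The 3 comparisons share their groups, and their values are given side by side. The older kidneys were counted on another set of gene models and sequenced more deeply than the 3-month-old kidneys, which cannot be told apart from age.

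Ciita was at 3.12, 4.31 and 3.76 CPM at 3 months, 4.52, 6.36 and 5.81 CPM at 12 months, and 6.73, 6.05 and 5.28 CPM at 24 months. Each older kidney was above each 3-month-old kidney, as for 10.9% of all tested genes in either comparison, and the older ages overlapped. The log2FC was 0.69 for 24 against 3 months (SE 0.197, adjusted p = 0.120 from edgeR) and 0.56 for 12 against 3 months (SE 0.197, adjusted p = 0.181 from edgeR), which did not pass. DESeq2 called Ciita for 24 against 3 months with a log2FC of 0.67 (adjusted p = 0.0280, between 0.0280 and 0.371 over 14 alternatives). Ciita shares 329 exon bases with Dexi on the opposite strand.

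Among the RFX genes none was called at any age. Rfx5 was at 7.25, 7.64 and 4.69 CPM at 3 months, 10.6, 8.20 and 10.6 CPM at 12 months, and 10.6, 8.38 and 9.77 CPM at 24 months. Its log2FC was 0.55 for 24 against 3 months (SE 0.196, adjusted p = 0.196 from edgeR) and 0.57 for 12 against 3 months (adjusted p = 0.178), and the lowest kidney of each age was among those whose proximal tubule markers were mostly lowest. Rfxap ranged from 7.97 to 9.07 CPM at 3 months, 6.84 to 8.91 CPM at 12 months and 8.68 to 9.70 CPM at 24 months, with overlap throughout and a log2FC of 0.13 for 24 against 3 months (SE 0.138, adjusted p = 0.579 from edgeR). Rfxank had the opposite order, at 13.9, 14.3 and 13.9 CPM at 3 months, 12.7, 13.0 and 13.2 CPM at 12 months, and 11.3, 10.7 and 11.4 CPM at 24 months. No age overlapped another for Rfxank. Its levels lay lower at 24 than at 3 months as for 11.6% of all tested genes. They lay lower at 12 than at 3 months as for 9.17% and at 24 than at 12 months as for 13.3%. The log2FC of -0.34 for 24 against 3 months (SE 0.113, adjusted p = 0.163 from edgeR) did not pass. Over 14 alternatives its adjusted p lay between 0.00667 and 0.436. The log2FC lay between -0.36 and -0.32, under the fold threshold in each.

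H2-Eb1 was at 58.7, 66.0 and 73.7 CPM at 3 months, 119.6, 120.5 and 127 CPM at 12 months, and 166, 128 and 122 CPM at 24 months. The 3-month-old kidneys lay below all others, as for 10.9% of all tested genes in either comparison, and 24-month replicate 1 was the highest of the 9. The log2FC was 1.06 for 24 against 3 months (SE 0.164, adjusted p = 0.0148 from edgeR) and 0.87 for 12 against 3 months (SE 0.163, adjusted p = 0.0347 from edgeR). H2-Ab1 had the same order, at 72.8, 87.0 and 92.8 CPM, then 144, 150.1 and 161.5 CPM, then 195, 148 and 143 CPM. Its log2FC was 0.93 for 24 against 3 months (SE 0.168, adjusted p = 0.0244 from edgeR) and 0.83 for 12 against 3 months (SE 0.167, adjusted p = 0.0396 from edgeR). H2-Aa, the partner chain of H2-Ab1, was at 53.1, 63.6 and 74.3 CPM, then 119, 136 and 127.5 CPM, then 162, 129 and 122 CPM. H2-Aa was up-regulated at 24 and 12 against 3 months, with log2FC of 1.10 (adjusted p = 0.0178) and 0.98 (adjusted p = 0.0319 from edgeR), whereas it had at most 3 reads in each PTEC culture. With each kidney left out in turn H2-Aa was called in 4 of 6 fits for 24 and in 2 of 6 for 12 against 3 months.

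Cd74 was at 122, 190.1 and 118 CPM at 3 months, 296, 184 and 325 CPM at 12 months, and 440, 286 and 330 CPM at 24 months. All 24-month-old kidneys were above all 3-month-old kidneys, as for 10.9% of all tested genes, and 12-month replicate 2 lay below 3-month replicate 2. The log2FC was 1.30 for 24 against 3 months (SE 0.261, adjusted p = 0.0400 from edgeR) and 0.89 for 12 against 3 months (SE 0.258, adjusted p = 0.117 from edgeR). H2-DMa was at 5.74, 7.22 and 7.62 CPM, then 11.7, 11.2 and 11.3 CPM, then 15.2, 11.1 and 12.0 CPM, and rose between 24 and 3 months by a log2FC of 0.89 (SE 0.167, adjusted p = 0.0291 from edgeR). H2-DMb1 was at 11.3, 9.50 and 13.7 CPM, then 14.3, 19.1 and 15.1 CPM, then 19.8, 18.4 and 17.3 CPM, and its log2FC of 0.67 (SE 0.197) did not pass (adjusted p = 0.127 from edgeR). H2-DMb2 was at 0.817 to 1.17 CPM at 3 months and 1.56 to 2.42 CPM at 24 months, with a log2FC of 0.99 that did not pass (adjusted p = 0.0842 from edgeR). Ctss was at 8.25, 9.99 and 12.8 CPM, then 19.5, 18.4 and 21.4 CPM, then 30.8, 24.5 and 21.7 CPM. No age overlapped another for Ctss, which was higher at 24 than at 12 months as were 12.0% of all tested genes, and its log2FC was 1.30 for 24 against 3 months (SE 0.201, adjusted p = 0.0152 from edgeR), 0.91 for 12 against 3 months (adjusted p = 0.0511) and 0.39 for 24 against 12 months (adjusted p = 0.392 from edgeR).

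**Figure D3:**
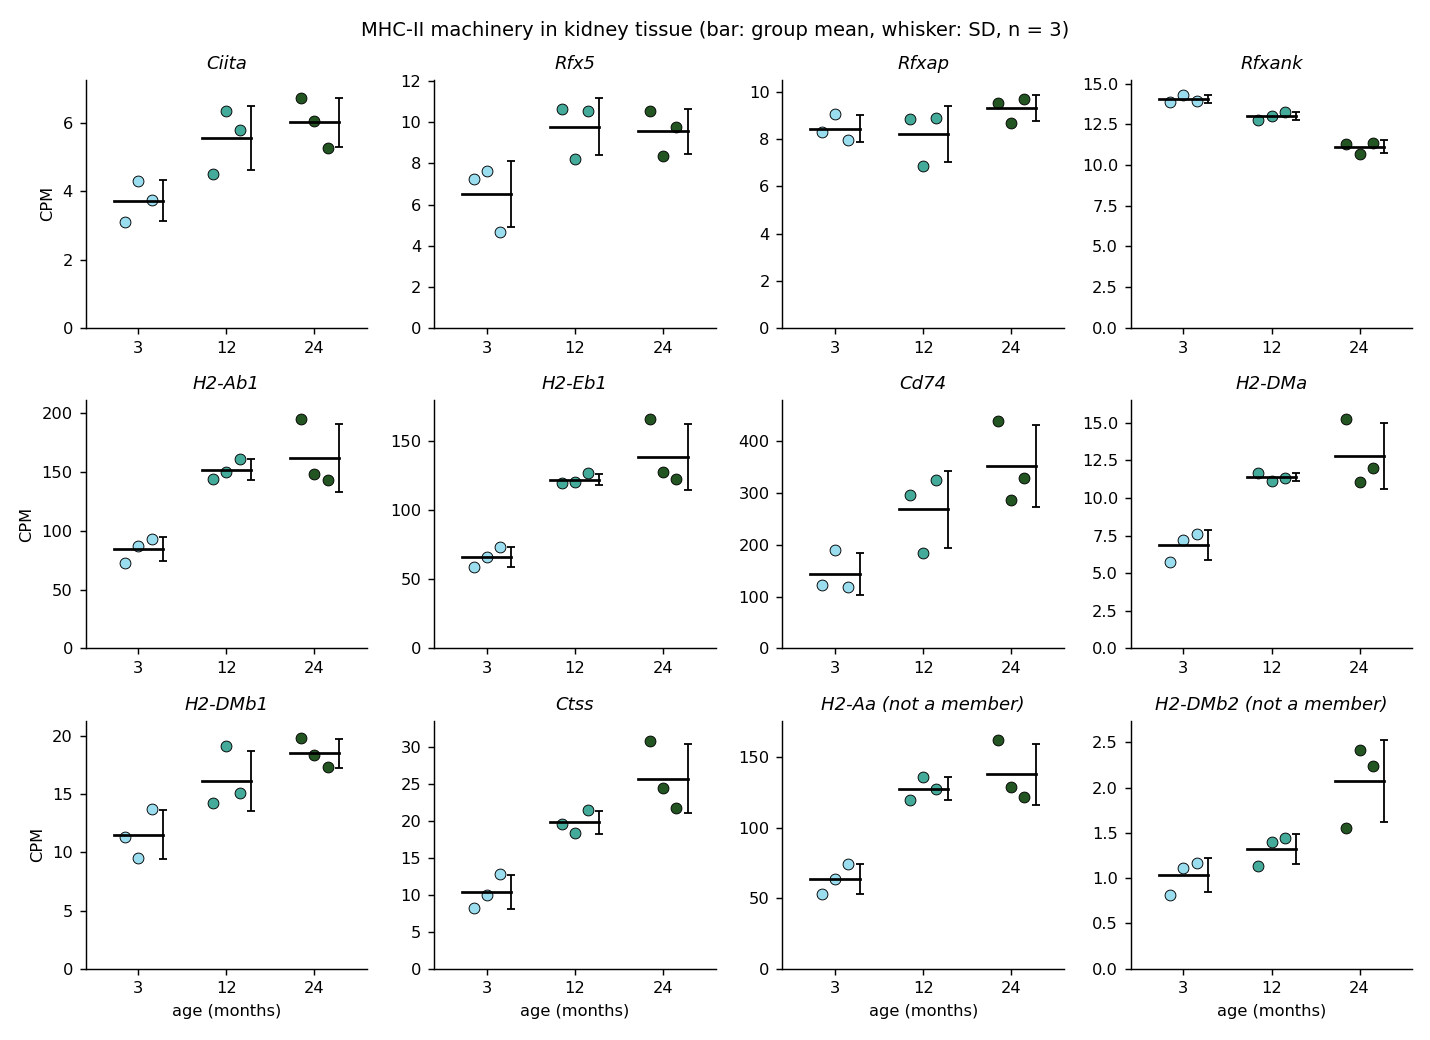
CPM of the 10 genes, H2-Aa and H2-DMb2 in kidneys of mice aged 3, 12 and 24 months, with 1 point per kidney, the mean as a bar and the SD as a whisker (n = 3). H2-Ab1, H2-Eb1 and H2-Aa lie above the 3-month-old kidneys at both older ages, as do 10.9% of all tested genes in either comparison. Ctss is separate at each age, and Rfxank has its highest values, 13.9 to 14.3 CPM, at 3 months.

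The kidney calls rested on few mice. Without 3-month replicate 1 or without 24-month replicate 1, 0 of the 10 genes were called by edgeR between 24 and 3 months. Without 24-month replicate 2 or 24-month replicate 3 there were 2, and without 3-month replicate 3 there were 3. In these fits the log2FC stayed between 1.11 and 1.52 for Cd74, 0.91 and 1.17 for H2-Eb1, 0.78 and 1.03 for H2-Ab1, 0.75 and 0.99 for H2-DMa and 1.15 and 1.51 for Ctss. Between 12 and 3 months H2-Eb1 was called in 1 of 6 such fits, without 3-month replicate 2, and H2-Ab1 in 0. With 3-month replicate 3 and 12-month replicate 2 both left out, 5 genes were called between 24 and 3 months, with H2-DMb1 gained (log2FC 0.83, adjusted p = 0.0449) and Cd74 lost (1.18, adjusted p = 0.0519 from edgeR), and 0 between 12 and 3 months. Rfxap, Cd74, H2-Ab1, H2-Eb1, H2-DMa and H2-DMb1 carry another gene model version in the older kidneys than at 3 months, while Ciita, Rfx5, Rfxank and Ctss carry the same one. Among other tested genes with a changed version the median log2FC was 0.08 and 2.57% were up-regulated between 24 and 3 months, against -0.00 and 1.78% of genes with the same version.

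**Figure D4:**
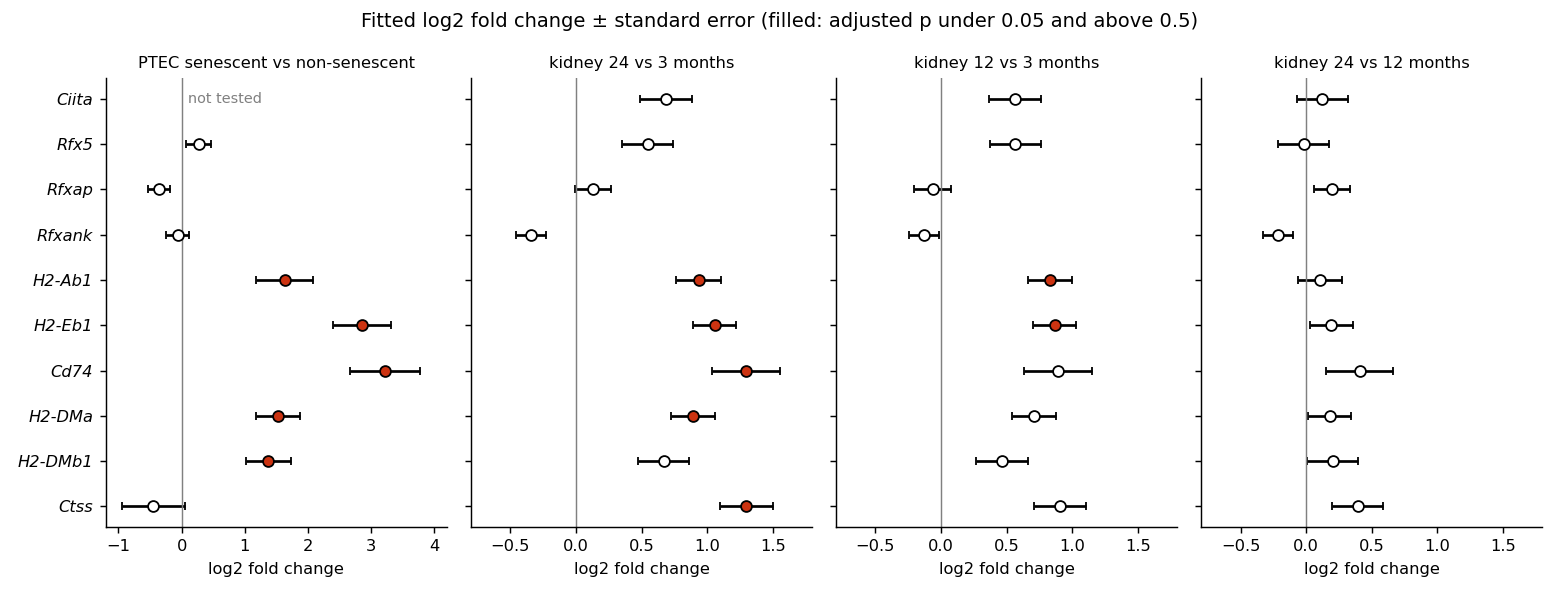
Fitted log2FC of the 10 genes in each comparison, with the SE as a bar and filled points for called genes. In PTEC the called genes lie between 1.37 and 3.22 and in 24- against 3-month-old kidneys between 0.89 and 1.30, the 3 RFX genes are open in all 4 panels, and the kidney panels share samples with each other.

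Leukocyte markers differed with age in the same kidneys. The 12 pan-leukocyte markers summed to 121 to 132 CPM at 3 months, 156 to 164 CPM at 12 months and 163 to 219 CPM at 24 months, and Rac2 and Vav1 were up-regulated between 24 and 3 months. Ptprc was at 4.29, 4.59 and 6.82 CPM at 3 months and at 10.3, 9.88 and 6.19 CPM at 24 months, with overlap and a log2FC of 0.74 (adjusted p = 0.286 from edgeR). Of 15 macrophage markers, which summed to 126 to 196 CPM at 3 months and 218 to 280 CPM at 24 months, C1qc was up-regulated, and Adgre1 (F4/80) had a log2FC of 0.95 (adjusted p = 0.119 from edgeR). Of 10 dendritic cell markers Xcr1, a marker of cross-presenting dendritic cells, was up-regulated, with a log2FC of 1.51 (adjusted p = 0.0148 from edgeR). In all, 7 had a positive log2FC and 3 a negative one, namely Cd209a (-0.83), Clec10a (-0.62) and Batf3 (-0.25), which were not called. The list summed to 14.5 to 16.5 CPM at 3 months and 19.1 to 25.9 CPM at 24 months. Fscn1 alone made up 21.5% to 41.9% and 28.6% to 36.0% of its reads. Among the B cell markers Cd79a and Fcrla, and of 8 T cell markers Cd3e, Cd3g and Cd4, were up-regulated. The B cell list summed to 2.95 to 4.62 CPM at 3 months and 5.84 to 8.59 CPM at 24 months, and the T cell list to 3.93 to 5.55 CPM and 8.56 to 12.1 CPM. Reads on Cd74, H2-Ab1 and H2-Eb1 per pan-leukocyte marker read were 2.10, 2.60 and 2.22 at 3 months, 3.45, 2.91 and 3.74 at 12 months, and 3.65, 3.45 and 3.60 at 24 months. Per macrophage marker read they were 1.45 to 2.01, 2.24 to 2.89 and 2.33 to 2.86, and per dendritic cell marker read 17.5 to 20.8, 18.1 to 23.8 and 28.2 to 31.1. These 3 ratios, whose numerator holds genes up-regulated in the same comparison, lay higher in all 24-month-old than in all 3-month-old kidneys. Per B cell marker read they were 54.8, 116 and 64.2 at 3 months and 137, 65.4 and 70.3 at 24 months, with overlap. At 12 months they were 104, 76.8 and 114. Per T cell marker read they were 60.1 to 64.4 at 3 months and 65.6 to 67.0 at 24 months. The 12-month-old kidneys, at 64.6, 40.4 and 95.8, spanned both of these ranges. Markers of other cells also differed. Of 12 proximal tubule markers, 11 had a positive log2FC between 24 and 3 months (median 0.64) and Slc5a2, Slc5a12 and Gatm were up-regulated, while of 8 fibroblast and pericyte markers 8 were positive (median 0.56) and 0 called by edgeR or limma voom (3 with an unadjusted p under 0.05, and Col1a1 and Col1a2 called by DESeq2), with a sum of 153 to 176 CPM at 3 months and 219 to 270.0 CPM at 24 months. The part of leukocyte number and of these other cells in the class II levels was not tested.

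**Figure D5:**
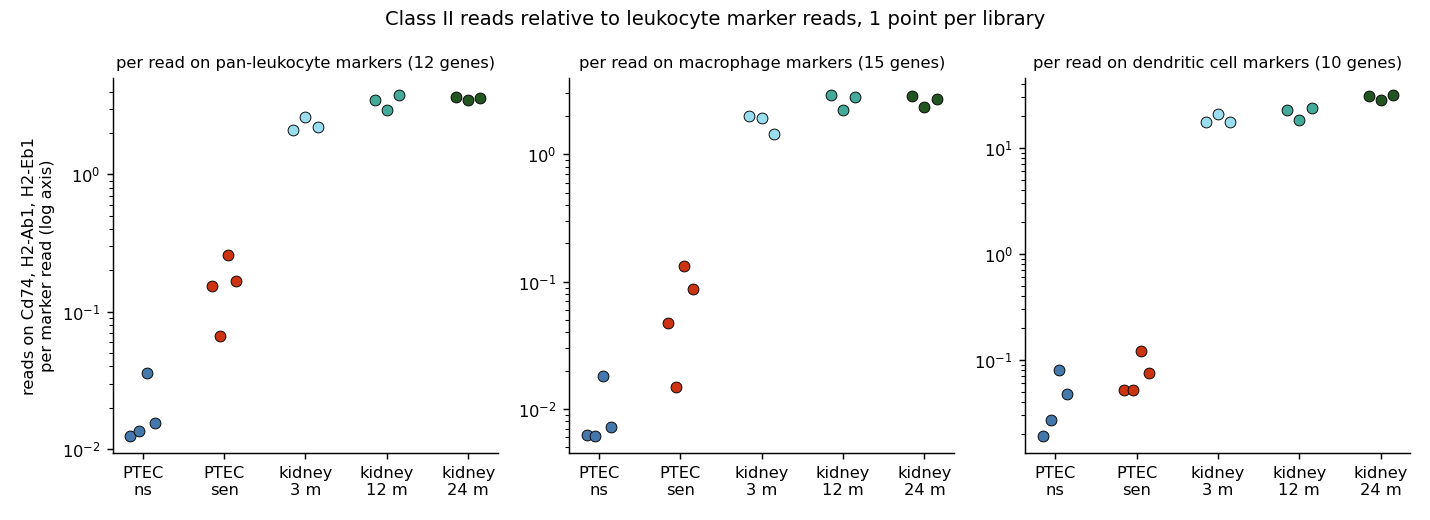
Summed reads on Cd74, H2-Ab1 and H2-Eb1 divided by summed reads on pan-leukocyte, macrophage or dendritic cell markers in each library, on log axes, for non-senescent (ns) and senescent (sen) PTEC and kidneys of 3, 12 and 24 months (m). The kidneys lie at 1.45 or more in all panels and the PTEC at 0.260 or less. The ranges of senescent and non-senescent PTEC are apart for the pan-leukocyte markers and overlap for the other lists. Each senescent culture lies above the non-senescent culture of its number in all 3 panels. All 3 genes of the numerator were up-regulated in senescent PTEC and in 24- against 3-month-old kidneys.

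Of the other class II genes in the kidneys, H2-Aa and H2-Eb2 were up-regulated between 24 and 3 months out of 5 tested, and H2-Oa and H2-Ob, which encode the inhibitor of H2-DM, had log2FC of 0.75 (adjusted p = 0.196) and 0.99 (adjusted p = 0.127 from edgeR). H2-Eb2 was at 0.0434 to 0.0854 CPM at 3 months (2 to 4 reads) and 0.233 to 0.510 CPM at 24 months, passed the filter on low counts through the older kidneys alone, and was called in 1 of 6 fits with a kidney left out and in 5 of 14 alternatives. On the way to Ciita, Irf8 alone of 12 tested genes was called, up-regulated at 24 against 3 months with a log2FC of 1.08 (adjusted p = 0.00685) and at 12 against 3 months with 0.77 (adjusted p = 0.0293 from edgeR). It was at 9.06, 9.78 and 10.1 CPM at 3 months and 23.0, 20.4 and 18.3 CPM at 24 months, whereas it was down-regulated in senescent PTEC. Irf1 had a log2FC of -0.11 (adjusted p = 0.789 from edgeR) between 24 and 3 months, and Ifng had at most 4 reads in any kidney. None of the 12 partners of the RFX complex and CIITA was called in any kidney comparison, and of the 9 genes of antigen processing and turnover Cd83, which stabilises class II at the cell surface, was up-regulated at 12 against 3 months (log2FC 1.70, adjusted p = 0.0362 from edgeR) and not called at 24 months. At 12 against 3 months Cd83 was called in 4 and Irf8 in 5 of 14 alternatives.

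Over the 9 kidneys, the genes most like a given one were taken as those with the smallest root mean square difference of log2 CPM profiles, each centred on its mean. Nearest to Ciita among 17066 other tested genes were Naalad2, Thbs3, Gm12352, Dpep1 and Colec12, with differences from 0.114 to 0.133. H2-Ab1 ranked 41, H2-DMa 52, H2-DMb1 101 and H2-Eb1 134, while Cd74 ranked 5449 and Rfxank 7412. Nearest to Cd74 were Hcls1, Cdt1, Rac2, Syne3 and Inpp5d, with differences from 0.141 to 0.152, and Rac2 is 1 of the pan-leukocyte markers. From Cd74, H2-Eb1 ranked 264, Ctss 278, H2-DMa 306, H2-Ab1 325 and Ciita 1501. These ranks describe 9 libraries that share the differences in depth and gene models between ages.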

How the data were processed

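Poly(A) RNA of 8 PTEC cultures and 9 kidneys had been sequenced in stranded, paired-end libraries. Per the study's methods and the submitters' processing notes, reads were processed with nf-core/rnaseq on GRCm38 (GENCODE M18), and the authors deposited raw counts per gene, without normalization, in 3 gene sets. Which tool counted the reads, and with what strand setting, is not given in the sources used here. Genes were matched by identifier without version. Symbols, positions and exon lengths are from GENCODE M21. Replicates were told apart by their counts, where the mean chi-square of a gene between replicates (genes with 20 or more reads in a pair) was at least 17.0 in each of 21 pairs.

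PTEC and kidneys were fitted apart in R 4.3.3 with edgeR 4.0.16 (TMM scaling, filterByExpr, robust quasi-likelihood test, Benjamini-Hochberg adjustment over all tested genes). All 9 kidneys shared an estimate of the spread. The procedure was tested on simulated data. DESeq2 1.42.0 with the settings of the study and limma 3.58.1 were alternatives, as were another scaling, no filter, a fold threshold of 1, a replicate block, each library left out and the compared ages alone. Leaving out the libraries that stand apart was added after seeing the data. Tables and figures were made with Python 3.11.15, numpy 2.4.6, pandas 2.3.3, scipy 1.17.1 and matplotlib 3.10.9.

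The 10 genes and all other lists were chosen with earlier results of these data known. Named genes are the 10 genes, called genes of each context list (all where at most 5 were called, otherwise the 3 largest and 3 smallest), a few genes singled out by role, and the 5 genes most like Ciita and Cd74. The sources do not say that a number marks a shared mouse. Deviations from group means correlated between same-numbered PTEC cultures with r from 0.187 to 0.614 over 4 pairs, which meets the criterion for pairing (each over 0.1). The values printed are from the fit without the block, the exact test and the comparisons of ranges also leave the pairing out, and the blocked value is given where it changed a call. Results for a few genes of the context lists are not reported here.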

Additional observations from a re-analysis of the deposited data

Results flagged for a closer look

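Among the PTEC groups of 4 cultures, 2 values stood far from the rest of their group by Dixon's criterion, which chance meets in about 1 in 20 groups. Ctss in non-senescent replicate 2 was at 20.6 CPM, the highest of its group, where the other cultures lay between 6.43 and 8.74 CPM. Ciita in senescent replicate 3 was at 0.0535 CPM, which is 2 reads where the other senescent cultures had 1 each.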

How the results depend on the processing

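Between senescent and non-senescent PTEC, 5 of the 10 genes were called in all 14 alternatives other than the replicate block, which called 6, Ctss being the one added. For kidneys of 24 against 3 months the number was 5, with 7 by DESeq2, which added Ciita and H2-DMb1, 3 at a log2 fold change above 1, 3 with the compared ages alone, and 0 to 5 with each kidney left out. For 12 against 3 months it was 2, with 5 by DESeq2, and 0 at a log2 fold change above 1, with the compared ages alone, or without the kidneys that stand apart, and 0 to 1 with each kidney left out. With the replicate block 0 genes were called in each kidney comparison, where same-numbered kidneys correlated from -0.703 to 0.558 and the numbers were not taken to pair the mice. For 24 against 12 months 0 genes were called in every alternative. Of the 10 genes, 6 turned direction in some alternative, each in a comparison in which it was not called. With single libraries left out, the log2 fold change ranged in PTEC from -0.17 to 0.059 for Rfxank and from -1.08 to 0.034 for Ctss, for 12 against 3 months from -0.12 to 0.035 for Rfxap, and for 24 against 12 months from -0.012 to 0.25 for Ciita, from -0.11 to 0.063 for Rfx5 and from -0.049 to 0.19 for H2-Ab1. Without replicate 3 of both PTEC groups Rfxank was at 0.053. The cause of these changes was not tested. With 3 mice an age and 1 to 14 reads on Ciita and Cd74 in some PTEC cultures, small differences could not be detected at this depth.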

Other observations

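Nlrc5 is a relative of Ciita that acts on MHC class I promoters through the same RFX complex. Of 7 tested genes of its list, 4 were up-regulated in senescent PTEC, against 20.1% of all tested genes, and the median log2 fold change (log2FC) was 0.90 against -0.00 over all tested genes. Nlrc5 itself was at 1.31, 3.72, 1.19 and 3.36 CPM in non-senescent and at 8.20, 8.55, 8.16 and 5.36 CPM in senescent PTEC. The groups did not overlap, as for 21.5% of all tested genes in this direction, and the log2FC was 1.68 (SE 0.386, adjusted p = 0.00659 from edgeR). Tap1, which belongs to the peptide transporter, was at 6.78 to 13.7 CPM and 29.3 to 39.9 CPM (log2FC 1.68, adjusted p = 0.000389 from edgeR), and Psmb8, an immunoproteasome subunit, and B2m, the light chain of class I, had log2FC of 1.15 (adjusted p = 0.0130) and 0.90 (adjusted p = 0.00245 from edgeR). The heavy chain genes H2-K1 and H2-D1 did not pass, with log2FC of 0.10 (adjusted p = 0.776) and 0.14 (adjusted p = 0.595), nor did Psmb9, another immunoproteasome subunit, with 0.84 (adjusted p = 0.0703 from edgeR), and all 3 overlapped between the groups. In the kidneys 0 of the 7 were called in any of the 3 comparisons. Nlrc5 had a log2FC of 0.64 between 24 and 3 months (adjusted p = 0.430 from edgeR), and its levels of 0.868, 1.13 and 1.71 CPM at 3 months overlapped those of 1.85, 2.67 and 1.33 CPM at 24 months.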
